A study of Mus musculus with 38 samples.

Results

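The 9 genes described here, Esr1, Esr2, Pgr, Cyp19a1, Greb1, Prlr, Irs4, Moxd1 and Sytl4, are the receptors for estrogens and progesterone, the enzyme that makes estrogens in the brain, and genes held to respond to gonadal steroids or to differ between the sexes in the limbic forebrain. They were taken by name, with earlier results of these data known, from a table of 25230 genes. All 9 had enough counts to be tested among 16309 genes. The tissue, from wild-type mice, was the adBNST, the anterodorsal part of the bed nucleus at the end of the stria terminalis, taken by microdissection for bulk RNA sequencing. Females gave 10 control and 9 stressed libraries, and males likewise 10 and 9, and the stressed mice had lived through chronic variable mild stress, a schedule of changing mild stressors, for 6 weeks. Neither the age nor the strain of the mice, nor the estrous stage of the females, is given in the labels used here. No label ties each numbered library to its own mouse, so p-values measure only the spread between these libraries, which may be technical. Dissections of this kind mix cell types, so fewer cells of a type and less RNA per cell cannot be told apart.

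Estrogens reach the forebrain from the gonads and are also made inside neurons by aromatase, which converts androgens. They bind the nuclear receptors ERα (Esr1) and ERβ (Esr2), which sit on estrogen response elements in DNA and raise or lower transcription of genes such as Pgr, the progesterone receptor, and Greb1. The bed nucleus of the stria terminalis is among the brain nuclei that differ in size and cell number between male and female rodents, and it holds neurons with estrogen and progesterone receptors and with aromatase.

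Promoter sequences are shown for Greb1, Cyp19a1 and Sytl4, the members whose levels differed between the sexes by the test described below. Each is the run of bases just upstream of a transcription start in RefSeq (GRCm38.p6), on the minus strand, written 5′ to 3′, with capitals marking AGGTCA or its reverse complement TGACCT, a half-site that many nuclear receptors share and that makes up each arm of the estrogen response element. The windows lie at chr12:16800887-16801136, chr9:54268165-54268414 and chrX:133981813-133982062, in the order printed, and the Greb1 window falls inside the span that RefSeq gives that gene, upstream of an inner start.
Greb1: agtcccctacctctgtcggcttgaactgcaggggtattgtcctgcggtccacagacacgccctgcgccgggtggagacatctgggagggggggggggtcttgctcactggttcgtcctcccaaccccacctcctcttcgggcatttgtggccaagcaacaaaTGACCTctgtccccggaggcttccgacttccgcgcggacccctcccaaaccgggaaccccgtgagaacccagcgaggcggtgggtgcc
Cyp19a1: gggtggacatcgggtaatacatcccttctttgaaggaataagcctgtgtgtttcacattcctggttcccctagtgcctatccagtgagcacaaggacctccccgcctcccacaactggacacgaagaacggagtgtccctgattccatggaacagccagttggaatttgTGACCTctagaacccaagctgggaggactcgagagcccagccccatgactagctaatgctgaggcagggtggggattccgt
Sytl4: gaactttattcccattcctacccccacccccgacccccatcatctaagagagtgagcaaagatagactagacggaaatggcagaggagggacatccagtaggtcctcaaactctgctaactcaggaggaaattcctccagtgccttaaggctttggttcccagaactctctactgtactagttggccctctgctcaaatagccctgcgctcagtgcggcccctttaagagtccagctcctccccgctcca
The printed Greb1 window holds 1 half-site, whose first base lies 88 bases upstream of the start, and the printed Cyp19a1 window holds 1 at 81 bases. RefSeq gives Greb1 another start and Cyp19a1 others further inside the gene, whose windows hold 0. Over both strands, 4607 of 32851 windows of 250 bases (14.0%) held the half-site, and 2 of the 15 windows of the 9 members did. The full palindrome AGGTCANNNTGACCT stood in 7 of all windows (0.021%) and in 0 of those 15. A match describes letters only, and which start these genes use in the adBNST was not analysed here.

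Across the 38 libraries, the growth-factor adaptor Irs4 stood highest per kilobase of merged exons, at 9.79 ± 4.25 CPM per kb (mean ± SD, n = 38). Levels are in CPM, counts scaled to a common library total, and were computed here from the deposited counts on effective library sizes. Moxd1, a protein related to dopamine beta-hydroxylase, followed at 8.29 ± 3.68 CPM per kb, within the spread of Irs4. Sytl4, the exocytosis adaptor granuphilin, stood at 4.06 ± 2.44, Pgr at 3.88 ± 0.97 and the prolactin receptor Prlr at 3.80 ± 1.85 CPM per kb, and these 3 did not differ beyond their spread. Greb1 (1.74 ± 1.58), Esr2 (1.37 ± 0.91), Esr1 (1.15 ± 0.48) and Cyp19a1 (0.636 ± 0.474) came last, each within the spread of its neighbour. These values pool the sexes, and the order of the means differed by sex (n = 19 each). Greb1 stood at 0.71 CPM per kb in females, below Esr1 (1.28) and Esr2 (1.23), and at 2.77 in males, above both (1.01 and 1.52). Sytl4 stood at 2.18 in females, below Pgr (3.57) and Prlr (2.995), and at 5.94 in males, above both (4.195 and 4.60). In RefSeq's annotation of GRCm38.p6, Esr1 lies at chr10:4611989-5005633, Esr2 at chr12:76120419-76177259, Pgr at chr9:8898900-8968611, Cyp19a1 at chr9:54165937-54268164 and Greb1 at chr12:16670615-16801394. Prlr lies at chr15:10177238-10349190, Moxd1 at chr10:24223517-24302783, and both Irs4 (chrX:141710998-141725217) and Sytl4 (chrX:133936385-133981821) are on the X chromosome. Antisense genes overlap 7.68% of the merged exon bases of Greb1 (Gm48140) and 6.08% of those of Irs4 (Gm15295), and since the strand setting of the counting is not given in the sources used here, reads of such pairs cannot be told apart. The lowest single count was 4 for Esr2 and 5 for Cyp19a1, each in 1 female library, whereas Prlr, Irs4, Pgr and Moxd1 had at least 188 counts in every library.

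Total counts per library ran from 9.06 to 84.8 M counts. The female transcript Xist and the Y-linked Ddx3y matched the sex label of each library. 5 libraries (control female 1 and 6, control male 3, stressed female 1 and 2) were known from earlier results to stand apart, and 3 of them held the highest summed oligodendrocyte markers of their groups, 24860, 22980 and 27163.5 CPM against group medians of 12033, 12075 and 9501. Stressed male 5 held transcripts of choroid plexus, with the transthyretin gene Ttr at 2878 CPM. Libraries numbered up to 5 (20 libraries) also differed from those numbered 6 and above (18 libraries), and both sets held all 4 groups, so values within each set are given for the averaged sex differences and the stress effects.

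**Figure D1:**
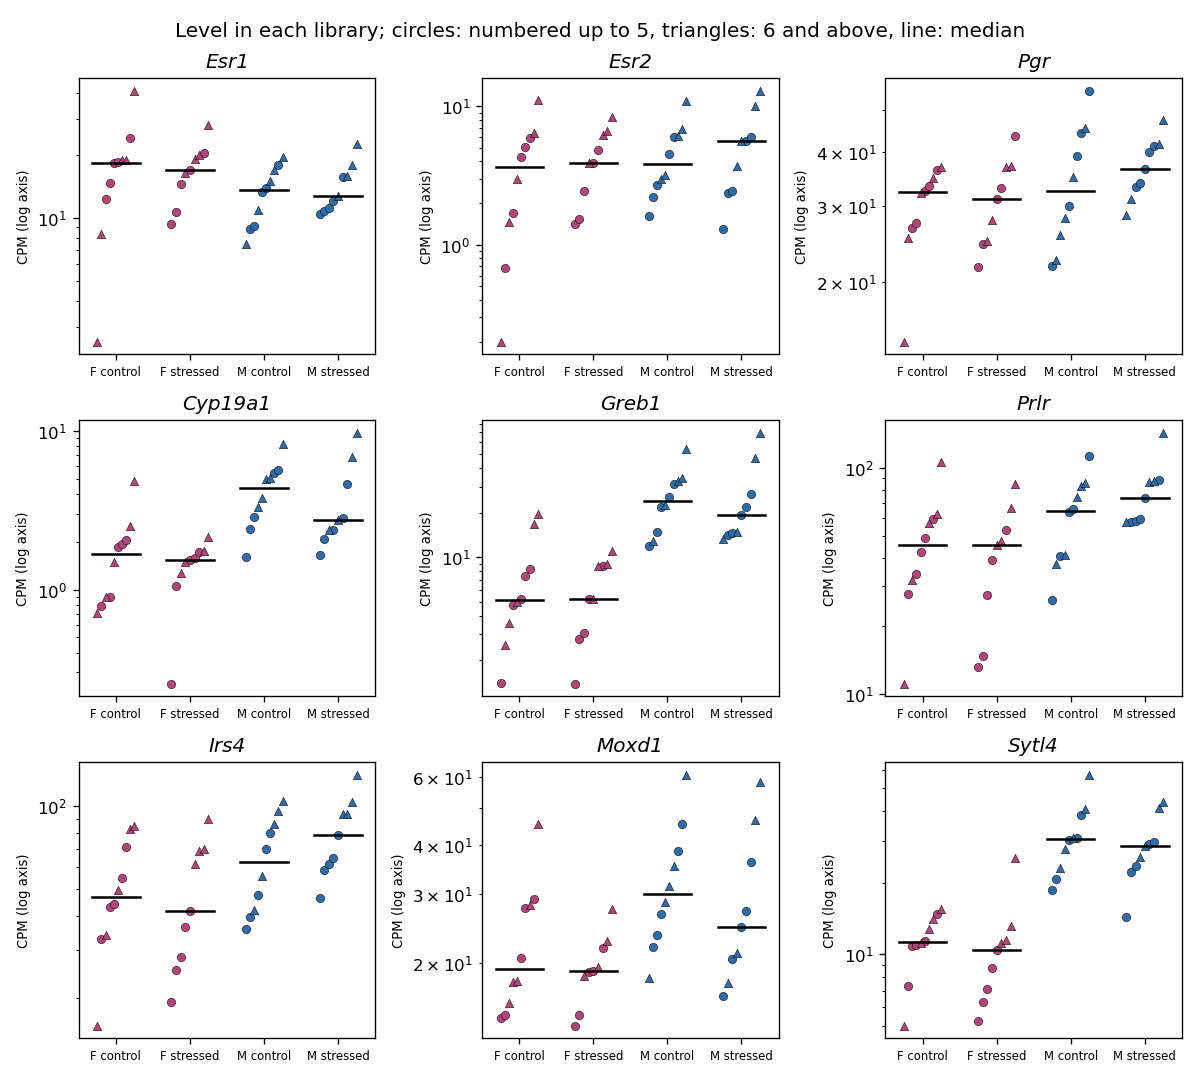
Level of each of the 9 genes in every library, in CPM on a log axis, for control and stressed mice of both sexes (F, female; M, male); circles are libraries numbered up to 5, triangles those numbered 6 and above, and lines are group medians. The male groups sit mostly above the female groups for Greb1, Sytl4 and Cyp19a1, while the groups overlap widely for Esr1, Esr2 and Pgr.

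Males and females differed in 3 of the 9 genes, and in all 3 the males were higher. In the same contrast 0.215% of all genes tested passed in either direction and 0.141% as higher in males. Greb1, an early estrogen target that binds ERα, was 3.90-fold higher in males, Sytl4 2.71-fold and Cyp19a1 2.58-fold, averaged over control and stressed mice. The 3 receptors did not pass the test, and Esr1 was the only member with a log2 fold change below 0, that is lower in males. For stress, none of the 9 genes passed the same test in either sex, and 0% of all genes did.

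Greb1 ran from 1.40 to 19.5 CPM in control females (median 5.09) and from 1.39 to 11.0 CPM in stressed females (median 5.18). It ran from 11.9 to 54.1 CPM in control males (median 24.0) and from 13.4 to 69.4 CPM in stressed males (median 19.2). The sexes did not overlap among libraries numbered up to 5, where the highest female stood at 8.71 CPM and the lowest male at 11.9. From 6 on they overlapped through control females 10 and 7, at 19.5 and 16.8 CPM. The log2 difference, male minus female, was 1.96 ± 0.29 (SE, 95% interval 2.64- to 5.75-fold, adjusted p = 4.99e-05).

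Sytl4, which binds Rab27 on secretory granules and is held to be expressed more in the male limbic forebrain, ran from 4.99 to 15.6 CPM in control females (median 11.2) and from 5.24 to 25.4 CPM in stressed females (median 10.4). In control males it ran from 18.7 to 57.0 CPM (median 30.7), all above every control female. In stressed males it ran from 14.3 to 44.0 CPM (median 28.7), and the only overlap with the stressed females came from stressed female 8 at the top of its group. In 13 of 19 male libraries the level was above the highest female. The log2 difference was 1.44 ± 0.17 (2.15- to 3.40-fold, adjusted p = 4.03e-07).

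Cyp19a1, aromatase, stood much lower, between 0.713 and 4.83 CPM in control females (median 1.68) and between 0.254 and 2.14 CPM in stressed females (median 1.52). It ran from 1.60 to 8.23 CPM in control males (median 4.40) and from 1.65 to 9.71 CPM in stressed males (median 2.74). The sexes overlapped, with 7 of 19 males above the highest female and 11 of 19 females below the lowest male. The log2 difference was 1.37 ± 0.25 (1.84- to 3.62-fold, adjusted p = 0.00286).

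These 3 calls were made over both conditions together, where 0.215% of all genes passed edgeR's quasi-likelihood test with Benjamini-Hochberg adjustment in either direction and 0.141% passed as higher in males. In control mice alone Sytl4 passed (log2 1.49 ± 0.23, adjusted p = 2.70e-04), against 0.0674% of all genes in either direction and 0.0491% higher in males. Greb1 missed the threshold of 0.05 there by a small margin (1.81 ± 0.39, adjusted p = 0.0516) and passed in 8 of 38 refits that left out 1 library each. Those were without control female 7 or 10, control male 3, 4 or 7, stressed female 2, or stressed male 4 or 7, and over all refits its adjusted p ranged from 0.00687 to 0.164. Cyp19a1 in controls (1.28 ± 0.34, adjusted p = 0.293) passed in 1 of the 38 refits, without control female 10 (adjusted p = 0.0354), and also with limma voom (adjusted p = 0.0133) and with Esr1 as a covariate (adjusted p = 0.0097). Greb1 in controls passed as well with a term for the number set (adjusted p = 0.00828), DESeq2 (0.00742), limma voom (0.00128), and the Esr1 or hypothalamic covariate (1.07e-04 and 3.84e-04). Shares of all genes passing in controls with the number set term or a covariate are not given here. Calls under those settings are therefore not shown to be particular to these genes.

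In stressed mice alone Sytl4 (1.38 ± 0.24, adjusted p = 0.00315) and Greb1 (2.12 ± 0.42, adjusted p = 0.0164) passed, against 0.0858% of all genes in either direction and 0.0797% higher in males. Without stressed female 3 or stressed male 7 the Greb1 call in stressed mice was lost, with adjusted p up to 0.0864. Cyp19a1 did not pass there (1.46 ± 0.36, adjusted p = 0.198). The test of whether the sex difference changed with stress is the interaction, which 0 of the 9 members passed.

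**Figure D2:**
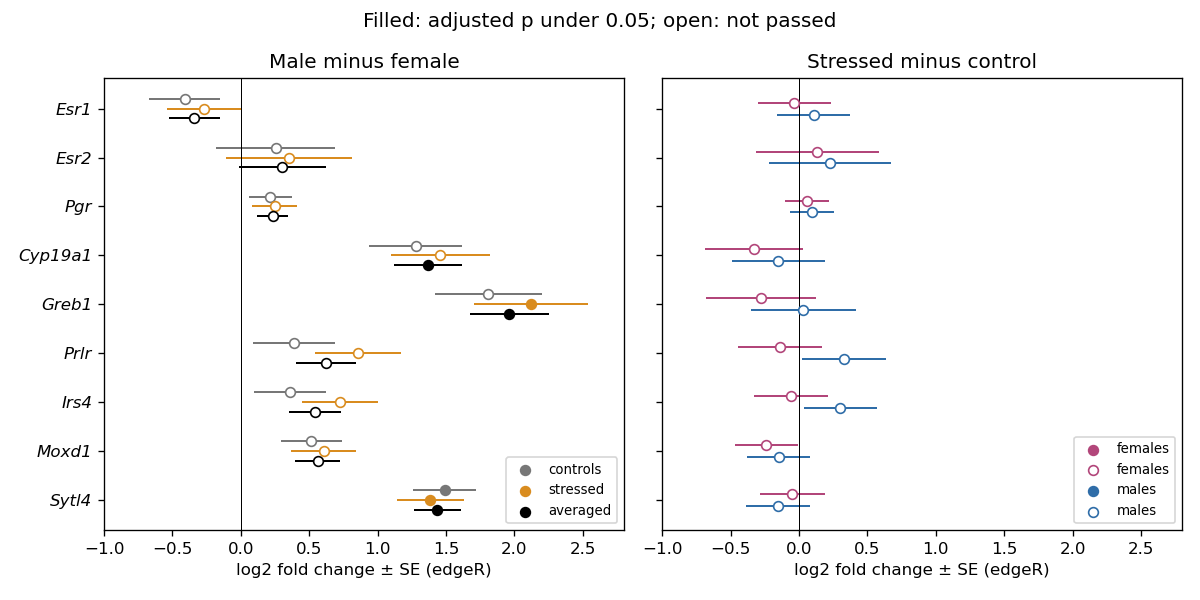
Log2 fold changes ± SE of the 9 genes from edgeR, male minus female in controls, in stressed mice and averaged (left) and stressed minus control in each sex (right); filled points passed at an adjusted p under 0.05. Sytl4, Greb1 and Cyp19a1 lie above 1 for sex, Esr1 lies below 0, and all stress values lie between -0.33 and 0.33 with open points.

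The other 6 members did not pass the averaged sex test. Moxd1 gave 0.56 ± 0.16 (adjusted p = 0.238), Prlr 0.62 ± 0.22 (0.344) and Irs4 0.54 ± 0.19 (0.347), each with a higher mean in males. In medians over 19 libraries of each sex, Moxd1 stood at 19.0 CPM in females and 27.1 in males, Prlr at 45.5 and 65.5, and Irs4 at 44.2 and 69.9. All 3 overlapped widely, with 3, 2 and 6 of 19 males above the highest female. Before adjustment 7 of the 9 members had p under 0.05 in this contrast, against 9.60% of all genes tested. For 8 of 9 the log2 fold change was above 0, against 49.3% of all genes. The median over the 9 members was 0.56 and over all genes -0.0022. The members include genes held to differ between the sexes and were chosen with earlier results of these data known. The excess over all genes is therefore no independent support for a male bias.

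Among the receptors, Esr1 had group medians of 18.4 CPM in control females, 17.0 in stressed females, 13.7 in control males and 12.7 in stressed males. The highest male library, at 22.7 CPM, lay below the highest female, control female 10 at 40.7, and the lowest of all was control female 6 at 2.54 CPM. The averaged log2 difference of Esr1 was -0.34 ± 0.19 (adjusted p = 0.575). Esr2 had medians of 3.91 CPM in females and 4.50 in males, within a range from 0.200 to 12.9 CPM over all libraries, and a difference of 0.30 ± 0.32 (adjusted p = 0.802). Pgr was the steadiest member, between 14.5 and 55.4 CPM over all libraries, with a difference of 0.23 ± 0.11 (adjusted p = 0.515).

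The 3 sex differences were recomputed without the 5 libraries that stood apart and stressed male 5 together. Sytl4 gave 1.46 ± 0.17, Greb1 1.85 ± 0.30 and Cyp19a1 1.44 ± 0.27, with adjusted p = 1.01e-06, 8.13e-04 and 0.00695, and 0.164% of all genes passed. Among libraries numbered up to 5 only, Sytl4 (1.52 ± 0.17) and Greb1 (2.07 ± 0.30) passed and Cyp19a1 did not (1.22 ± 0.30, adjusted p = 0.394), against 0.0758% of all genes. Among those numbered 6 and above, Sytl4 passed (1.40 ± 0.22), and Greb1 (1.91 ± 0.41, adjusted p = 0.111) and Cyp19a1 (1.49 ± 0.34, adjusted p = 0.192) did not, against 0.114% of all genes. For the other members the values up to 5 and from 6 on were 0.87 and 0.43 for Prlr, 0.60 and 0.53 for Irs4, 0.54 and 0.59 for Moxd1, 0.15 and 0.40 for Esr2, 0.28 and 0.18 for Pgr, and -0.36 and -0.32 for Esr1. None of these 6 passed in either set.

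**Figure D3:**
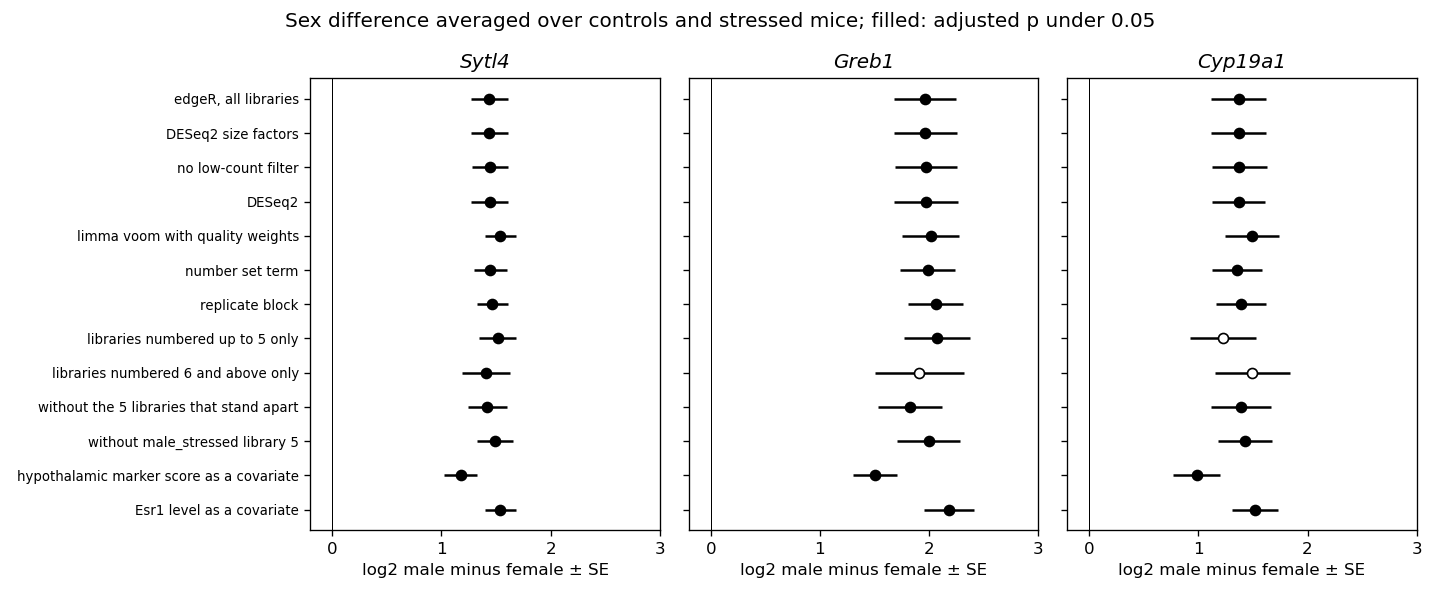
Averaged male minus female log2 difference ± SE of Sytl4, Greb1 and Cyp19a1 under each processing setting; filled points passed at an adjusted p under 0.05. All values lie above 0, from 1.18 to 1.54 for Sytl4, from 1.51 to 2.18 for Greb1 and from 0.98 to 1.52 for Cyp19a1.

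Stress was the study's main contrast. In females 0 of the 9 members passed edgeR's test, with 0% of all genes called, and log2 fold changes ran from -0.33 (Cyp19a1) to 0.13 (Esr2) with an adjusted p of 1 for each. In males 0 members passed, again with 0% of genes called, and values ran from -0.15 (Sytl4) to 0.33 (Prlr) with adjusted p from 0.863 to 0.99. None of the 9 members had an unadjusted p under 0.05 in either sex, against 1.89% of all genes in females and 4.02% in males. For 9 members, 0 lies near these shares. DESeq2 and limma voom also called 0 members. Within the number sets the female values ran from -0.69 (Irs4) to -0.012 (Pgr) up to 5 and from -0.33 (Cyp19a1) to 0.48 (Esr2) from 6 on, and the male values from -0.44 (Cyp19a1) to 0.18 (Irs4) and from -0.038 (Sytl4) to 0.54 (Prlr), with 0 members passing in either set. In females the Prlr medians were 45.7 CPM in controls and 45.5 in stressed mice, and in males 64.5 and 73.8.

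The interaction, males minus females, ran from -0.11 (Sytl4) to 0.47 (Prlr) over the members with adjusted p from 0.846 to 0.978, and stress averaged over the sexes from -0.24 (Cyp19a1) to 0.18 (Esr2). In both, 0 members and 0% of all genes passed. Before adjustment 0 members had a p under 0.05, near the shares of 4.51% and 1.47% over all genes. Standard errors of the stress effects of the members ran from 0.16 (Pgr) to 0.45 (Esr2), so changes were bounded unevenly between genes. For Pgr in females the 95% interval was 0.837- to 1.29-fold, and for Cyp19a1 it was 0.489- to 1.29-fold.

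The members were also set against Esr1, the receptor through which several of them are held to respond. In females Greb1 stood at 0.422 ± 0.306 times the Esr1 count (n = 19) and in males at 1.86 ± 0.691 (n = 19). Prlr stood at 2.69 ± 0.828 and 5.05 ± 1.11 times Esr1, and Irs4 at 3.06 ± 1.10 and 5.28 ± 1.16. For Sytl4 the ratios were 0.759 ± 0.426 and 2.24 ± 0.562. Mean ratios were also higher in males for Esr2 (0.221 and 0.352), Pgr (2.10 and 2.73), Cyp19a1 (0.113 and 0.291) and Moxd1 (1.54 and 2.30). Control female 6, where Esr1 was lowest, had the highest female ratio for Greb1 (1.41), Sytl4 (1.96), Cyp19a1 (0.588) and Moxd1 (7.02). Above it lay 13 of 19 males for Greb1 and 14 for Sytl4, but 0 for Cyp19a1 and 0 for Moxd1.

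With log2 CPM of Esr1 as a covariate, an alternative chosen after seeing the data, 7 of the other 8 members passed the averaged sex contrast, all higher in males, against 3.74% of all genes. Prlr gave 0.91 ± 0.13 (adjusted p = 1.45e-05), Irs4 0.77 ± 0.12 (7.32e-05), Moxd1 0.65 ± 0.13 (0.00408) and Esr2 0.78 ± 0.21 (0.0326). Greb1, Sytl4 and Cyp19a1 gave 2.18 ± 0.23, 1.54 ± 0.14 and 1.52 ± 0.21. Pgr did not pass (0.32 ± 0.097, adjusted p = 0.0532). The covariate brought calls for 610 genes in all, against 35 without it. Esr1 itself had a lower mean in males (-0.34 ± 0.19), though it did not pass. It also correlated positively with every other member within groups (r from 0.543 to 0.868, given below). Adjusting for Esr1, or dividing by it, therefore moves the male minus female values of the members upward. The values given Esr1 are not separate support for a male bias of these genes.

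**Figure D4:**
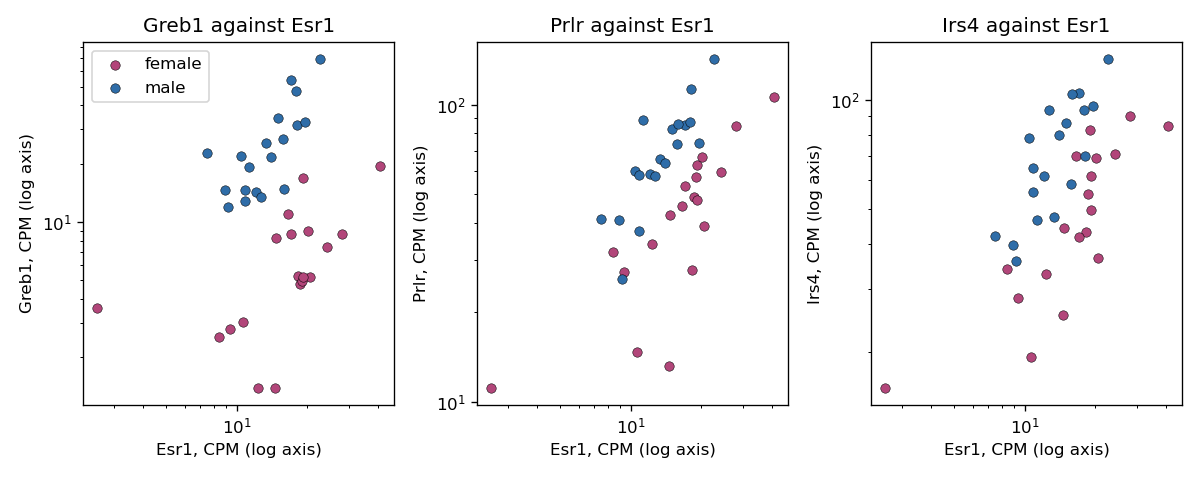
Levels of Greb1, Prlr and Irs4 against Esr1 in the 38 libraries, in CPM on log axes, coloured by sex. Within each sex the genes are high where Esr1 is high, and males lie above females at like levels of Esr1, most clearly for Greb1.

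Within the groups the 9 genes varied together. On log2 CPM centred within each group and number set, all 36 pairs had a Pearson correlation above 0 over 38 libraries, from 0.210 to 0.868 with a median of 0.588. In permutation tests within groups and sets (100000 resamples, Benjamini-Hochberg over 72 relations), 31 pairs passed for Pearson's r and 30 for Spearman's rho. Points share library, depth and the extent of the dissection, and genes in them are not independent. Shares over all gene pairs, or over all genes for the region markers below, were not computed. These counts are therefore not shown to be particular to the 9 members. Pgr reached 0.955 with Epm2aip1, a gene outside the members, above every member pair.

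Esr1 and Irs4 had the highest value (r = 0.868, rho = 0.803, permutation p = 1e-05 for r, the smallest that these resamples can give, and 2e-05 for rho, adjusted p = 5.14e-05 and 9e-05). It was 0.795 without the 2 libraries farthest from the median of Esr1, 0.706 among libraries up to 5 and 0.939 from 6 on. Cyp19a1 and Moxd1 came next (r = 0.842, rho = 0.862, permutation p = 1e-05 for each, adjusted p = 5.14e-05 and 9e-05, and 0.863 without the 2 farthest), with 0.756 and 0.930 in the sets. Esr1 and Prlr gave r = 0.836 and rho = 0.823 (permutation p = 1e-05 and 2e-05, adjusted p = 5.14e-05 and 9e-05, and 0.739 without the 2 farthest), with 0.645 and 0.959 in the sets. Pgr and Sytl4 gave the lowest value (r = 0.210, rho = 0.065, permutation p = 0.294 and 0.732, adjusted p = 0.312 and 0.732), and r was -0.087 without the 2 farthest. Among libraries up to 5 this r was -0.047, and that of Prlr with Sytl4 went from 0.367 to -0.049.

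The members also followed markers of neighbouring regions. Summed markers of preoptic and other hypothalamic neurons, of which 8 of 14 were tested, ran from 35.3 to 110.6 CPM (controls) and 40.3 to 73.5 (stressed) in females, and from 43.8 to 94.3 (controls) and 46.9 to 120.7 (stressed) in males. Of these markers Nkx2-1, Otp, Sim1, Trh and Slc17a6 had counts in every library. The rest were at 0 in some libraries, and Hmx2 and Six6 had a median of 0. The sums cover all 14 markers, whereas the correlations used the mean of the 8 tested ones. In the same permutation tests all 9 members correlated positively with that mean, from r = 0.575 for Sytl4 to 0.865 for Esr2 (rho = 0.813, permutation p = 1e-05 for each, adjusted p = 5.14e-05 and 9e-05, 0.795 without the 2 farthest, 0.742 and 0.944 in the number sets). With septal markers 7 of 9 passed, up to 0.843 for Irs4.

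With the markers of striatum, the region beside the nucleus, all 9 values were below 0, and 6 passed by Pearson's r and 5 by rho. The lowest was Irs4 (r = -0.771, rho = -0.709, permutation p = 1e-05 and 2e-05, adjusted p = 5.14e-05 and 9e-05), with -0.680 without the 2 farthest libraries and -0.746 and -0.789 in the sets. The values of Sytl4 (-0.419), Cyp19a1 (-0.199) and Moxd1 (-0.339) took the opposite sign among libraries up to 5 (0.105, 0.071 and 0.055). That of Pgr (-0.372) did so without the 5 libraries that stood apart (0.084). Of these, only Sytl4 had passed by r. With choroid plexus markers 1 of 9 passed by r and 3 by rho. By r it was Prlr (r = 0.403, rho = 0.540, permutation p = 2.4e-04 and 3.5e-04, adjusted p = 7.51e-04 and 9.69e-04), and it was 0.641 without stressed male 5 and 0.392 without the 2 farthest libraries. Stressed male 5 alone moved the other values too, from 0.153 to 0.616 without it for Irs4, 0.065 to 0.561 for Esr2, 0.168 to 0.507 for Pgr, 0.211 to 0.496 for Esr1, 0.209 to 0.429 for Greb1, 0.177 to 0.254 for Moxd1, -0.055 to 0.456 for Sytl4 and -0.045 to 0.206 for Cyp19a1.

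**Figure D5:**
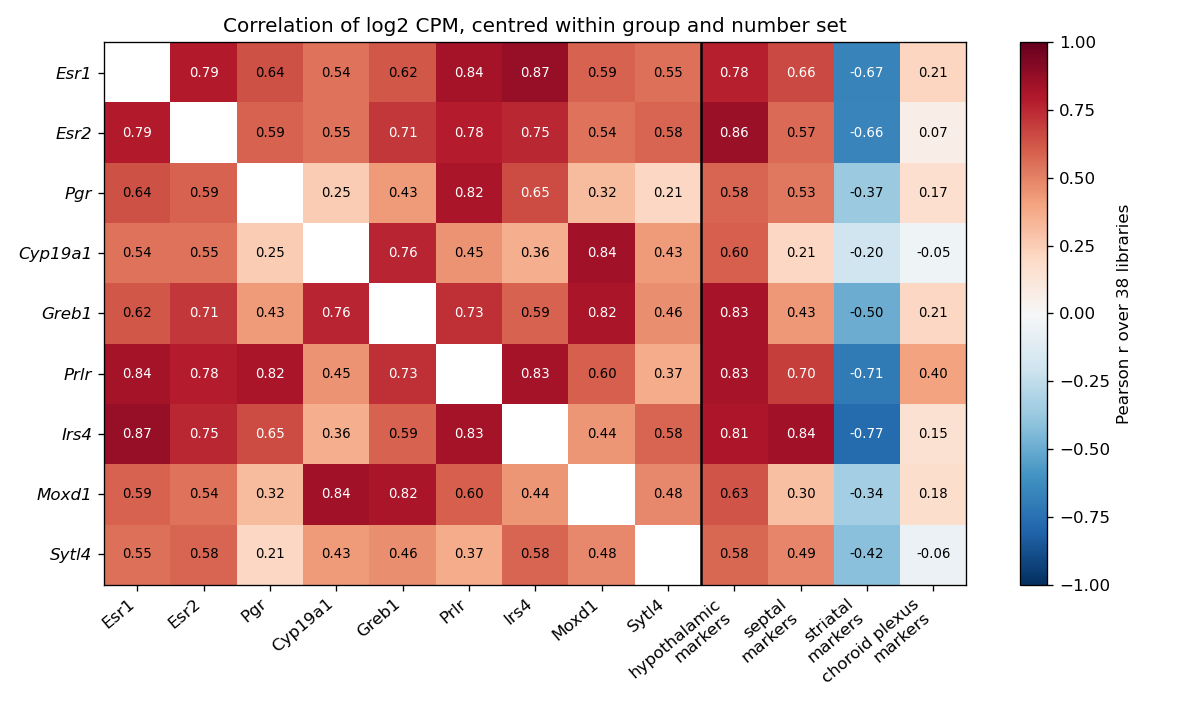
Pearson correlations over 38 libraries of log2 CPM centred within group and number set, between the 9 genes (left) and with mean marker levels of 4 neighbouring regions (right). All member pairs and all values with hypothalamic markers are above 0, and all values with striatal markers are below 0.

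Between the sexes, 0 of 8 hypothalamic and 0 of 12 striatal markers passed, with medians of 0.23 and -0.32 on the log2 scale, male minus female. Of 10 choroid plexus markers 1 passed, Ttr (4.00 ± 0.82, adjusted p = 0.0128), with a list median of 1.15, and 2 passed in stressed mice. Without stressed male 5, a setting added for these markers after seeing the data, 0 passed in either, Ttr gave 1.58 ± 0.53 (adjusted p = 0.346) and the median was 0.13. With the mean of the 8 tested hypothalamic markers as a covariate, chosen after seeing the data, Greb1 gave 1.51 ± 0.20 (adjusted p = 6.71e-06), Sytl4 1.18 ± 0.15 (3.60e-06) and Cyp19a1 0.98 ± 0.22 (0.0399), all higher in males. Esr1 was then lower in males, at -0.63 ± 0.13 (adjusted p = 0.0126), and 0.135% of all genes passed. Without the covariate Esr1 gave -0.34 and did not pass (adjusted p = 0.575). Prlr, Irs4 and Moxd1 stood at 0.30 ± 0.14, 0.22 ± 0.13 and 0.30 ± 0.14 and did not pass, and Esr2 turned to -0.27 ± 0.19. The hypothalamic markers had a median above 0, male minus female, and every member correlated positively with their mean within groups. Adjusting for them therefore moves the male minus female values of the members downward. The Esr1 call given these markers is not separate support for a female bias. Whether the mix of regions accounts for the sex differences was not tested. The 14 genes listed as adBNST markers, Gad1, Gad2 and Prkcd among them, had counts in every library. Their presence does not show that the tissue was adBNST alone. Stressed female 1 held the highest sum of its group for these markers (6058 CPM) and for striatal markers (5826 CPM). Control male 4 did so too (4122 and 4646 CPM), while in control females and stressed males different libraries were highest.

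The genes most like each member over the 38 libraries, among 14514 genes with a mean of at least 1 CPM, are given as a description. C530008M17Rik (r = 0.942) and the thyrotropin-releasing hormone receptor Trhr (0.930) followed Prlr. Grhl1 (0.905), the bombesin-like receptor Brs3 (0.896) and Pgr15l (0.889) were most like Esr1. Epm2aip1 (0.955), Arl5a and Uhmk1 were most like Pgr, and Tmem255a (0.908), Kcnk9 and Gng2 most like Irs4. Cyp19a1 and Moxd1 shared Arhgap24 (0.822 and 0.869) and the hypothalamic factor Otp (0.806 and 0.819) among their 3. Esr2 and Greb1 shared Gldn (0.854 and 0.853), and Greb1 was also close to the peptide gene Adcyap1 (0.852). Dlx1 (0.804), a factor of GABAergic neurons, Zic2 (0.795) and H2-Q2 were most like Sytl4.

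In a list of 20 other genes held to respond to gonadal steroids or to differ between the sexes in these regions, 3 of 19 tested passed the averaged sex contrast, all higher in males. Over all genes 0.215% passed in either direction and 0.141% as higher in males. Cckar, a cholecystokinin receptor, ran from 1.16 to 3.53 CPM in control females and from 3.25 to 15.5 in control males, and from 1.02 to 2.14 in stressed females and 2.88 to 12.4 in stressed males. Its difference was 1.82 ± 0.19 (adjusted p = 4.06e-08). The peptide galanin (Gal) had female medians of 6.78 CPM (controls) and 4.57 (stressed) and male medians of 11.9 and 9.55, with a difference of 1.03 ± 0.16 (adjusted p = 1.64e-04). Vasopressin (Avp), a peptide of male-biased bed nucleus neurons, had medians of 1.67 and 1.03 CPM in females and 4.24 and 2.99 in males, with 1.07 ± 0.22 (adjusted p = 0.0122). The list's median was 0.20, against -0.0022 over all genes. This list too was chosen with earlier results of these data known, so its calls are no independent support for a male bias.

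In the other pathway lists 0 genes passed in any of the 7 contrasts. These were other steroid receptors (13 tested), steroid synthesis and metabolism (17), receptor chaperones and co-regulators (25), prolactin and growth hormone signalling (13), insulin receptor substrates and IGF signalling (12), synaptotagmin-like exocytosis genes (8) and copper hydroxylases with peptide amidation genes (4). The membrane progesterone binding protein Pgrmc1, the most abundant of the other receptors, averaged 434 CPM with a log2 difference, male minus female, of 0.015 ± 0.058, and the membrane progestin receptor gene Paqr8 136 CPM with -0.26 ± 0.086 (adjusted p = 0.326). The receptor chaperones Hsp90ab1 (1637 CPM) and Hspa8 (993 CPM) gave 0.038 ± 0.053 and 0.068 ± 0.066. Among the relatives of single members, Jak2, the kinase below the prolactin receptor, gave -0.091 ± 0.082, the Rab27b gene, whose product Sytl4 binds, 0.025 ± 0.11, and Irs1 0.11 ± 0.067.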

How the data were processed

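Per the labels' protocols, RNA of each adBNST sample was purified on small columns, selected for poly-A and made into strand-marked libraries. The authors deposited a table of raw read counts with genes as symbols and libraries as columns. Its values are whole numbers with unequal totals, which ranged from 9.06 to 84.8 M, so that 1 count was worth 0.0116 to 0.115 CPM. The submitters' processing notes name STAR, featureCounts, DESeq2 and mm10 without versions, and no source used here gives the annotation or strand setting. Column names matched the titles of all 38 libraries.

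Libraries were grouped by their titles and their sex and treatment labels. Genes were tested across the whole table with edgeR 4.0.16 (R 4.3.3) on the counts: filterByExpr by group, TMM normalisation, a mean for each of the 4 groups, quasi-likelihood tests of 7 contrasts, and Benjamini-Hochberg adjustment over 16309 genes, with an adjusted p under 0.05 as threshold. The filter removed 8921 genes, of which 3439 had no count. Correlations used log2 CPM with a prior count of 2, centred within group and number set. Within groups, the most similar pairs had a chi-square per gene of 7.91 to 19.0, so none was treated as a copy. Alternatives were DESeq2 1.42.0, its size factors, limma voom (3.58.1) with quality weights, no filter, subsets of libraries, a replicate block and leaving out each library. Scripts were tested on simulated data.

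The members and gene lists were chosen with earlier results of these data known. Named genes were the 9 members, passing genes of each list with its 2 most abundant, and the 3 genes most like each member. Irs1 was added after its values were seen, as were Nkx2-1, Otp, Sim1, Trh and Slc17a6 among markers. A gene that the rule names is not reported here. Sequences and coordinates came from RefSeq tables for GRCm38.p6, the assembly that mm10 names, in which all 9 members matched by symbol, and exon lengths from GENCODE M21.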

Additional observations from a re-analysis of the deposited data

Results flagged for a closer look

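In 36 tests of 1 gene in 1 group, 3 libraries lay farther from the rest of their group than Dixon's limit allows. Chance alone gives about 1 in 20. Pgr stood at 14.5 CPM in control female 6, below the other 9 libraries of that group. Cyp19a1 stood at 0.254 CPM in stressed female 3, from 5 counts, below the other 8. Prlr stood at 142 CPM in stressed male 7, above the other 8. Control female 6 is among the 5 libraries that stood apart, and stressed male 7 was also the highest library of its group for Greb1, Cyp19a1, Irs4, Esr1, Pgr and Moxd1.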

How the results depend on the processing

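Counts of members passing were 0 for stress in females, in males, averaged and for the interaction under every alternative run. For sex averaged over conditions the count was 3, 2 among libraries numbered up to 5, 1 among those numbered 6 and above, 4 with the hypothalamic covariate and 7 with Esr1 as a covariate, and 3 in all refits without 1 library. In controls it was 1, 2 with DESeq2, the number set term, the replicate block or the hypothalamic covariate, 3 with limma voom or the Esr1 covariate, 0 from 6 on, and 1 to 3 in refits without 1 library. In stressed mice it was 2, 3 with DESeq2, 1 among libraries up to 5 and without the 5 that stood apart (also without stressed male 5), 0 from 6 on, 6 with the Esr1 covariate, and 1 to 2 in refits without 1 library. Calls over all genes rose from 35 to 60 (DESeq2) and 67 (voom) for the averaged sex contrast, from 11 to 21 and 30 in controls, and from 14 to 24 and 21 in stressed mice. In the averaged contrast they were 610 with the Esr1 covariate, 22 with the hypothalamic covariate, 12 up to 5 and 19 from 6 on. Under alternatives other than DESeq2 and voom, calls over all genes in controls alone or in stressed mice alone are not given here. The member counts under those alternatives are therefore not shown to be particular to the members.

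The replicate numbers were not shown to pair the libraries: same-numbered libraries correlated from -0.357 to 0.671, and 8 of 38 had their closest match in their own number. With the replicate block Greb1 was the member gained in controls (2.04, adjusted p = 0.0028 from edgeR's quasi-likelihood test), the averaged sex differences were 1.47 (Sytl4), 2.06 (Greb1) and 1.39 (Cyp19a1), and stress values turned to 0.15 for Esr1 in females and -0.0050 for Greb1 in males.

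Several small stress values changed sign, and the cause was not tested. In females these were Esr1 0.034 and Greb1 0.011 (voom), Esr2 -0.30 and Pgr -0.012 (up to 5), Esr1 0.21, Prlr 0.18, Irs4 0.44 and Sytl4 0.37 (from 6), Esr1 0.15 (hypothalamic covariate) and Irs4 0.0013 (without the 5 and stressed male 5). In males they were Greb1 -0.22 (voom), Esr1 -0.083, Pgr -0.049 and Greb1 -0.13 (up to 5), Cyp19a1 0.099 and Moxd1 0.042 (from 6), Greb1 -0.041 (without the 5) and -0.13 (Esr1 covariate), and Esr1 -0.18, Esr2 -0.45, Pgr -0.0069 and Greb1 -0.44 (hypothalamic covariate). Refits without 1 library ranged in females from -0.17 to 0.19 (Esr1), -0.040 to 0.45 (Esr2), -0.025 to 0.11 (Pgr), -0.42 to 0.010 (Greb1), -0.32 to 0.067 (Prlr), -0.22 to 0.045 (Irs4) and -0.31 to 0.042 (Sytl4). In males they ranged from -0.032 to 0.46 (Esr2), -0.44 to 0.00044 (Cyp19a1) and -0.28 to 0.21 (Greb1). For sex, Esr2 turned to -0.010 in controls (up to 5), and to -0.76 in stressed mice and -0.27 averaged (hypothalamic covariate). Of the correlations that had passed, that of Sytl4 with striatal markers turned to 0.105 up to 5. Fits on only the groups compared could not be made for the averaged contrasts and the interaction, which use all 4 groups.

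Cyp19a1 and Esr2 had the fewest counts, so their single-library values are the least precise.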
